A study of Mus musculus with 13 samples.

Results

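The granins and Cpe, their companion in the endocrine secretory granule, were followed in pancreas RNA of young, old and old-OSKM mice. Scg5 is counted among the granins throughout. The 6 genes were Chga (chromogranin A), Chgb (chromogranin B), Scg2, Scg3, Scg5 and Cpe, taken by name from a table of 23366 genes identified by Entrez number. All 6 were found, and none was lost to a filter on low values because none was applied. The samples were pancreata of 13 female i4F-B mice, 1 library per mouse. All 3 groups carried the same transgene, inserted in the Pparg gene, from which doxycycline induces Oct4, Sox2, Klf4 and Myc (OSKM). The transgene is ubiquitous, but the study describes uneven expression between cell types, broad in acinar cells and not in most endocrine cells of the pancreas. Young mice (n = 4, 13 weeks) and old mice (n = 5, 55 weeks) received no doxycycline. Old-OSKM mice (n = 4) received doxycycline in the drinking water for 1 week and then recovered for 2 weeks, and the labels give their age as 58 weeks. No group received doxycycline without expressing the cassette, so the drug and the OSKM factors cannot be told apart, and neither can they be told apart from the difference between 55 and 58 weeks. Expression was given as log2 RPKM, the logarithm of reads per length of transcript and per size of library, which allows levels of different genes to be compared per length.

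Endocrine and neuroendocrine cells store hormones in dense-core granules. Granins are acidic proteins that condense with the hormones in the trans-Golgi network and leave the cell with them, and several are cleaved into peptides of their own. In the pancreas they belong to the islet cells, a small part of a tissue that consists mostly of acinar cells, and they are also made by nerve fibres. Chga, Chgb and Scg2 encode granule cargo. Scg3 encodes a granin that binds cholesterol-rich granule membrane and helps to bring Chga into the granule. Scg5 encodes a chaperone of the prohormone convertase made by Pcsk2, and Cpe encodes the carboxypeptidase that trims basic residues from cleaved prohormones, insulin among them.

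The promoters were examined from 250 bases before to 50 bases after the transcription start, in the RefSeq sequences of GRCm38.p6 (the mm10 assembly). A window was found for 5 of the 6 genes, all but Cpe. The cAMP response element TGACGTCA reads the same on both strands and contains the shorter core TGACG once per strand. The promoters of Scg2 and Chgb each held 1 full element, and they are shown because these granins carried it at nearly the same distance from the start. It began 68 bases before the start of Scg2 and 72 bases before that of Chgb. The promoter of Chga is shown beside them because it held 1 core, 44 bases before the start, and the letters TATAAA, beginning 5 bases after the annotated start. Capitals mark these motifs, and each sequence runs 5′ to 3′ along the strand of its gene.
Scg2, chr1:79439977-79440276, minus strand: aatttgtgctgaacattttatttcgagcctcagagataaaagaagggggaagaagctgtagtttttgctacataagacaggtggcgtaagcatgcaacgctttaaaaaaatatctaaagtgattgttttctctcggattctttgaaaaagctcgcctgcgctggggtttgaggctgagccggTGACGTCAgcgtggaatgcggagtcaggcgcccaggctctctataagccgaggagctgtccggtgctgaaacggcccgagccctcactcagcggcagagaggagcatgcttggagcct
Chgb, chr2:132781392-132781691, plus strand: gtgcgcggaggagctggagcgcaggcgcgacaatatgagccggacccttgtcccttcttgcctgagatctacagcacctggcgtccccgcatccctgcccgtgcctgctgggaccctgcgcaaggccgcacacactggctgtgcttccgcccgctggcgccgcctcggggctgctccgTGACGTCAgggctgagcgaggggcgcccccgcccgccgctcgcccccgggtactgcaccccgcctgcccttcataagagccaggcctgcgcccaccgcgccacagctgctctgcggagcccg
Chga, chr12:102554691-102554990, plus strand: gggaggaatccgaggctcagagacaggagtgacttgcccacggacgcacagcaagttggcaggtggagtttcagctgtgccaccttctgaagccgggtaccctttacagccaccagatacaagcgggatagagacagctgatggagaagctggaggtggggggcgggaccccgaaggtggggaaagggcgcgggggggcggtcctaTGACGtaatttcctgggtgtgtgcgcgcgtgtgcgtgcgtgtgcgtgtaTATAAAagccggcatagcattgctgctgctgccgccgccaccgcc

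Searched on both strands, the full element was present in 1.79% of 32851 promoters of the same length, the core (those inside the full element included) in 20.8% and TATAAA in 13.6%. The Scg3 promoter held 1 core, 30 bases before the start, and that of Scg5 held 3. The Scg3 window, chr9:75684007-75684306 on the minus strand, lies wholly inside the span of the gene given below. The start used for Scg3 is therefore an internal one. None of the 5 windows other than that of Chga held TATAAA. These are matches of letters, and binding was not measured. The 6 genes lie apart in the genome, Chga (Entrez 12652) at chr12:102554941-102565027, Chgb (12653) at chr2:132781642-132795079, Scg2 (20254) at chr1:79434366-79440026, Scg3 (20255) at chr9:75643366-75685959, Scg5 (20394) at chr2:113776313-113829091 and Cpe (12876) at chr8:64592542-64693109.

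Some mice stood apart before any comparison. In the old-OSKM group, replicate 1 had the lowest and replicate 4 the highest level of all 6 genes. Across the 3 groups, replicate 1 was the lowest of the 13 mice for each of them. The same replicate 1 had the highest summed RPKM of adipocyte genes, 6.24 against at most 2.16 in the other mice, and of immune genes, 19.8 against at most 10.2. Replicate 4 was second in both and had the highest summed RPKM of fibroblast genes, 72.8 against at most 53.8. The part of these cells in the granin levels was not tested. The summed RPKM of 7 islet hormone genes ranged from 148 to 307 in young, from 166 to 381 in old and from 76.6 to 490 in old-OSKM mice. Young replicate 3 had 4.31 log2 RPKM of Ppy (pancreatic polypeptide) and 1.83 of Fabp1, an enterocyte gene, against at most 1.54 and -1.12 in the other mice. Acinar genes were at the top of every library, with a summed RPKM of 13801 to 14761, which fits the labelled tissue. Read depth per mouse is not given in the table. The sample identifiers in the labels form 2 runs, 609 to 621 and 641 to 643, the second with 2 young mice and 1 old mouse, too few to be analysed alone.

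Chga had the highest level of the 6. It read 2.64, 2.20, 3.78 and 2.92 log2 RPKM in young replicates 1 to 4. In old replicates 1 to 5 it read 2.75, 2.76, 3.74, 2.92 and 3.59, and in old-OSKM replicates 1 to 4 it read 1.55, 2.61, 2.04 and 4.21. The groups overlapped, and the old-OSKM mice held both the lowest and the highest value, 6.29-fold apart. Chgb was lower, at 0.16, 0.43, 1.59 and 0.63 in young mice. It read 0.26, 0.59, 1.43, 0.64 and 1.04 in old mice and -1.16, 0.32, 0.07 and 1.86 in old-OSKM mice. The highest mouse of each group was the same as for Chga, and between old-OSKM replicates 1 and 4 Chgb differed 8.11-fold. Scg2 read 1.59, 1.25, 2.85 and 1.90 in young mice, 1.97, 2.36, 2.90, 2.38 and 3.01 in old mice, and 0.70, 1.75, 1.12 and 3.23 in old-OSKM mice. All 5 old mice lay above 3 of the 4 young and 3 of the 4 old-OSKM mice, and the remaining mouse of each group lay among or above the old mice.

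Scg3, the granin that brings cargo to the granule membrane, read 1.00, 0.79, 2.08 and 1.12 log2 RPKM in young mice. It read 1.19, 1.31, 2.19, 1.57 and 1.94 in old mice and -0.05, 0.82, 0.25 and 2.23 in old-OSKM mice. The arrangement was that of Scg2, with 3 of the 4 mice of each other group below all old mice. Scg5, the convertase chaperone, was the lowest of the 6. It read -0.24, -0.28, 1.14 and -0.15 in young, 0.14, 0.56, 1.06, 0.03 and 0.85 in old, and -1.28, -0.27, -0.20 and 1.10 in old-OSKM mice. Again the old mice lay above all but 1 mouse of each other group. Cpe differed from the granins in its arrangement. The carboxypeptidase read 2.03, 2.35, 2.84 and 2.61 in young, 1.44, 1.86, 2.33, 1.85 and 1.87 in old, and 0.99, 1.86, 1.07 and 2.71 in old-OSKM mice. The young mice were high, with 4 of the 5 old mice and 3 of the 4 old-OSKM mice below the lowest of them.

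**Figure D1:**
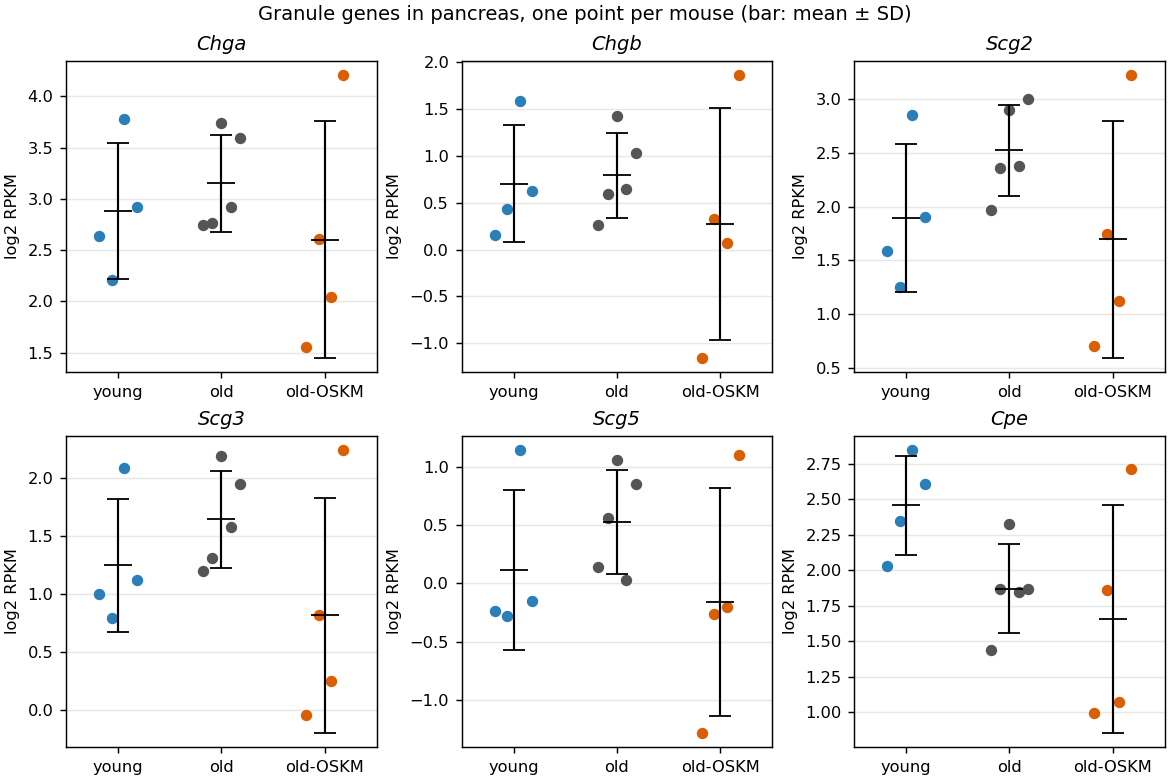
Log2 RPKM of the 6 genes in each mouse, by group, with the mean and SD of the group as a bar. Old-OSKM mice span the widest range for every gene, from 1.55 to 4.21 for Chga, and Cpe is the gene for which young mice lie highest.

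Over the 13 mice the mean levels ran from Chga (2.90 log2 RPKM, the 97.2nd percentile of all genes) through Scg2, Cpe, Scg3 and Chgb to Scg5 (0.19). The order of the 5 granins, Chga over Scg2 over Scg3 over Chgb over Scg5, was the same in 13 of 13 mice. Cpe did not keep a fixed place. It lay under Scg2 in 8 of 13 mice, by 0.09 ± 0.62 (SD of the log2 ratio, n = 13), so these neighbours did not differ beyond their spread. Cpe exceeded Scg3 in 12 of 13 mice and lay under Chga in 12 of 13. Between the granins next to each other, the log2 ratio was 0.82 ± 0.20 for Chga to Scg2, 0.81 ± 0.17 for Scg2 to Scg3, 0.66 ± 0.28 for Scg3 to Chgb and 0.42 ± 0.26 for Chgb to Scg5 (SD, n = 13).

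Old and young mice were compared first, the contrast that addresses what aging does to these genes. Of the 6, 5 were higher in old mice and Cpe was lower, but none of the differences passed the test. Scg2 averaged 1.90 ± 0.69 in young and 2.52 ± 0.43 in old mice (SD), a log2 difference of 0.63 (SE 0.48, 95% interval -0.43 to 1.68, adjusted p = 1, limma). For Cpe the means were 2.46 ± 0.35 and 1.87 ± 0.32, a difference of -0.59 (SE 0.33, interval -1.31 to 0.13, adjusted p = 1). The differences of Chga, Chgb, Scg3 and Scg5 were 0.27, 0.09, 0.39 and 0.41, with standard errors of 0.43 to 0.51. Called here means a fold change over 1.5 with a raw p under 0.01 in limma, the thresholds of the study, and 0 of 6 genes were called, against 0.886% of all genes. At a raw p under 0.05 there were also 0 of 6, against 5.52% of all genes. The median difference of the 6 was 0.33, beside 0.0012 over all genes. It was 0.14 without young replicate 2 and 0.62 without young replicate 3. In bulk tissue, fewer islet cells and less RNA per islet cell cannot be told apart in any of these values.

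Old-OSKM mice were then compared with old mice, which addresses what a cycle of OSKM followed by recovery does in old pancreas. All 6 genes had a lower mean in old-OSKM mice, and again none passed the test. Scg3 averaged 1.64 ± 0.42 in old and 0.81 ± 1.01 in old-OSKM mice (SD), a log2 difference of -0.83 (SE 0.43, interval -1.78 to 0.13, adjusted p = 0.60, limma). Scg2 gave the same difference, -0.83 (SE 0.48, adjusted p = 0.61), and both were 1.77-fold lower. Scg5 differed by -0.69, Chga by -0.55, Chgb by -0.52 and Cpe by -0.21. Of the 6 genes 0 were called, against 0.753% of all genes, and 0 had a raw p under 0.05, against 8.07%. The median difference was -0.62, beside -0.039 over all genes. Much of the uncertainty came from old-OSKM replicates 1 and 4, the lowest and the highest of their group. Without replicate 4 the median difference of the 6 was -1.10, and Scg2 (-1.34) and Scg3 (-1.30) were called. Of all 23366 genes, 181 were called in that fit. Without replicate 1 the median difference of the 6 was -0.26 and none was called.

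Old-OSKM and young mice were compared last. The 6 genes had lower means in old-OSKM mice, and the largest difference was that of Cpe, which averaged 2.46 ± 0.35 in young and 1.66 ± 0.80 in old-OSKM mice (SD). It was -0.80 (SE 0.35, interval -1.56 to -0.042, adjusted p = 0.71, limma), or 1.74-fold lower. The granins differed by -0.20 for Scg2 to -0.43 for Scg3 and Chgb, less than their standard errors of 0.46 to 0.54. None of the 6 was called, against 0.625% of all genes, and Cpe alone had a raw p under 0.05, against 5.07%. Without old-OSKM replicate 4, Cpe differed by -1.15 and was called, as were 179 of all 23366 genes. Without old-OSKM replicate 1, or without young replicate 3, Chga, Scg2 and Scg5 were slightly higher in old-OSKM mice. No gene of the 6 had groups free of overlap in any of the 3 contrasts, beside 2.71%, 1.73% and 1.90% of all genes. The 3 contrasts share mice, so they are not independent of each other.

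The mice ordered the granins much as they ordered the mean of the islet hormones. Single hormones followed the mean of the granule genes unequally, from r = 0.505 for Gcg and 0.699 for Ppy to 0.982 for Ins2. Over the 13 mice, the mean log2 RPKM of Ins1, Ins2, Iapp, Gcg, Sst, Ppy and Pyy correlated with Chgb at r = 0.964 (rho = 0.934) and with Chga at r = 0.960 (rho = 0.984). For Scg3 r was 0.951, for Scg2 0.918 and for Scg5 0.916. The permutation p of Pearson's r was 1e-05, the smallest that 100000 permutations can give, for these granins except Scg2 (2e-05), and the adjusted values over 21 relations were 1.75e-05 to 2.8e-05. Without the 2 mice farthest from the median the granins kept r of 0.852 to 0.948, and within the first run of sample identifiers r was 0.939 to 0.988. Cpe followed the hormones less closely, with r = 0.815 (permutation p = 0.00083, adjusted 0.0010) and rho = 0.659 (permutation p = 0.017, adjusted 0.019). Centred on the group means, Cpe reached r = 0.925, near the 0.928 to 0.976 of the granins. All these relations rest on libraries with a shared quantile normalization and depths that the table does not give.

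Pairs of the 6 genes showed the same division. The 10 pairs of granins had r of 0.911 (Chgb and Scg2) to 0.978 (Scg2 and Scg3) over the 13 mice, each with a permutation p of 1e-05 to 2e-05, and rho of 0.835 to 0.978. The 5 pairs with Cpe had r of 0.633 (Scg2) to 0.806 (Chgb), with adjusted permutation p of 0.00092 to 0.021 and rho of 0.522 to 0.747. For Scg2 with Cpe the permutation p of rho was 0.071. Without the 2 mice farthest from the median of the granin, r fell to 0.394 for Scg2 with Cpe and to 0.334 for Scg5 with Cpe. Leaving out the farthest mice narrows the range of the granin, which by itself can lower r. The fall therefore cannot show that r depended on those mice. Within the young, old and old-OSKM mice, r was 0.792, 0.775 and 0.984 for Scg2 with Cpe. For Scg5 with Cpe it was 0.769, 0.754 and 0.882. After centring on group means, pairs with Cpe had r of 0.826 to 0.922.

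**Figure D2:**
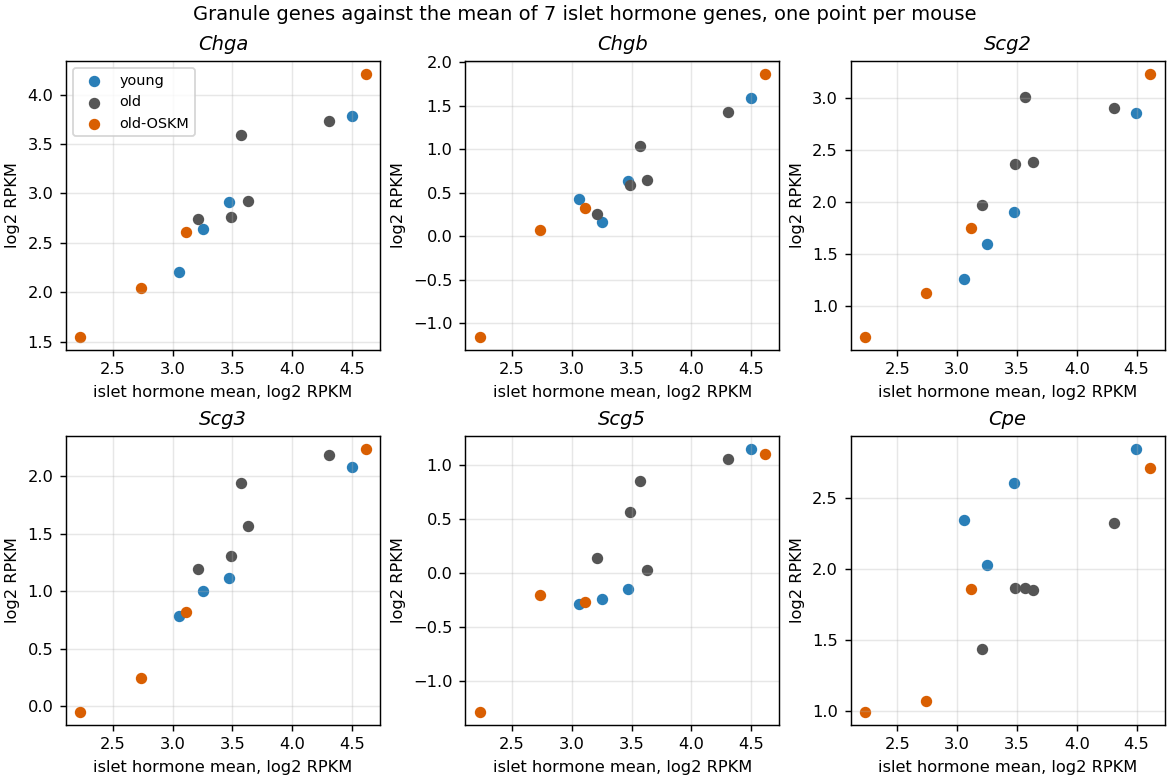
Log2 RPKM of each gene against the mean log2 RPKM of 7 islet hormone genes, one point per mouse, coloured by group. Granin levels rise with the hormone mean (r of 0.916 to 0.964), and for Cpe (r of 0.815) young mice lie above old mice of like hormone level.

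Since islet hormone content differed so much between mice, the groups were also compared with the hormone mean of each mouse as a covariate in limma. This narrowed the standard errors from 0.33 to 0.54 without it to 0.10 to 0.19 with it. At equal islet hormone level, Cpe was lower in old than in young mice, by -0.64 (SE 0.13, interval -0.93 to -0.34, adjusted p = 0.18), or 1.55-fold, and was called. It was the 1 gene of the 6 called, against 0.937% of all genes. Its raw p was under the threshold of 0.01 and its adjusted p over all genes was not under 0.05. Scg2 differed in the other direction, by 0.55 (SE 0.15, interval 0.22 to 0.88, adjusted p = 0.39), which at 1.47-fold was under the fold threshold. Scg3 differed by 0.33 (SE 0.10, interval 0.10 to 0.56, adjusted p = 0.54), Scg5 by 0.34 (SE 0.18), Chga by 0.19 (SE 0.14) and Chgb by 0.01 (SE 0.15). A raw p under 0.05 was reached by 3 of the 6, against 6.34% of all genes. With each mouse left out in turn, Cpe stayed between -0.74 and -0.55. Without young replicate 2 or young replicate 4 its fold fell under 1.5 and the call was lost. Without young replicate 4 Scg2 was called in its place, at 0.59, and of all 23366 genes 201 were called. Fibroblast markers also had lower means in old than in young mice. With their mean as a second covariate Cpe differed by -0.50 and was not called. Scg2 then differed by 0.64 (SE 0.19, adjusted p = 0.31) and was called, and of all 23366 genes 249 were called in that fit. The size of these differences also depended on the hormones in the covariate. The median of the 6 was 0.26 with the hormone mean used here. It was 0.11 with a mean without Ppy and Pyy, and 0.029 with the mean of Ins1, Ins2 and Iapp.

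The same fit gave small differences between old-OSKM and old mice. Scg3 differed by -0.38 (SE 0.11, interval -0.62 to -0.15, adjusted p = 0.37) and Scg2 by -0.35 (SE 0.16, adjusted p = 0.37), while Cpe (0.10), Chga (-0.051) and Chgb (-0.0056) lay near 0. None of the 6 was called in limma, against 0.719% of all genes, and 2 of 6 had a raw p under 0.05, against 13%. The median of the 6 went from -0.62 to -0.15, beside -0.049 over all genes. Between old-OSKM and young mice Cpe differed by -0.53 (SE 0.14, interval -0.85 to -0.21, adjusted p = 0.48), 1.45-fold lower, and the granins by -0.056 to 0.21. None was called there either, against 0.71% of all genes, and Cpe was the 1 gene with a raw p under 0.05, against 7.42%.

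**Figure D3:**
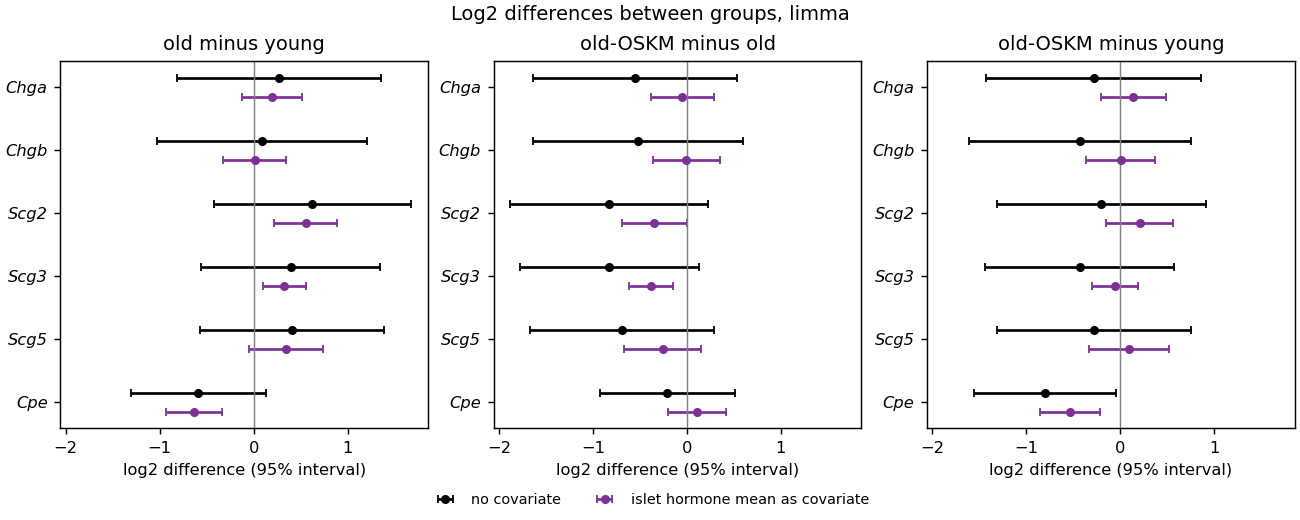
Log2 differences of the 6 genes in the 3 contrasts with 95% intervals from limma, in black without a covariate and in purple with the islet hormone mean of each mouse as covariate. Intervals are narrower with the covariate, and Cpe lies below 0 in old against young mice (-0.64) and in old-OSKM against young mice (-0.53).

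Ratios within a mouse cancel a scaling of the whole library, but not necessarily the islet hormone level. Over the 13 mice, the slope on the hormone mean was 0.70 for Cpe and 0.96 to 1.10 for the granins. Ratios to Cpe can therefore shift with the islet hormone level of a mouse. The ratios were examined after the values were seen, over 15 pairs in 3 contrasts, 45 comparisons by two-sided exact permutation tests. The log2 ratio of Scg2 to Cpe averaged -0.56 ± 0.47 in young, 0.65 ± 0.27 in old and 0.04 ± 0.35 in old-OSKM mice (SD). Young mice ranged from -1.10 to 0.01 and old mice from 0.50 to 1.14, without overlap, so Scg2 exceeded Cpe in every old mouse, while in young mice it was level with Cpe or lower. The difference of 1.21, a 2.32-fold change of the ratio, had an exact p of 0.016, the smallest that 5 against 4 mice allow, and an adjusted p of 0.13. Scg3 to Cpe behaved alike, at -1.21 ± 0.38 in young and -0.23 ± 0.23 in old mice, also without overlap (exact p = 0.016, adjusted p = 0.13). Chga, Scg5 and Chgb relative to Cpe were higher in old mice by 0.85, 1.00 and 0.68 (exact p = 0.032 each, adjusted p = 0.13), with overlap. The background is high here: relative to Cpe, 7.21% of all genes separated old from young mice. In old-OSKM mice the ratio of Scg2 to Cpe was 0.61 lower than in old mice, and that of Scg3 to Cpe also by 0.61 (exact p = 0.032 each, adjusted p = 0.13), with overlap, and 0.248% of all genes separated these groups relative to Cpe.

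**Figure D4:**
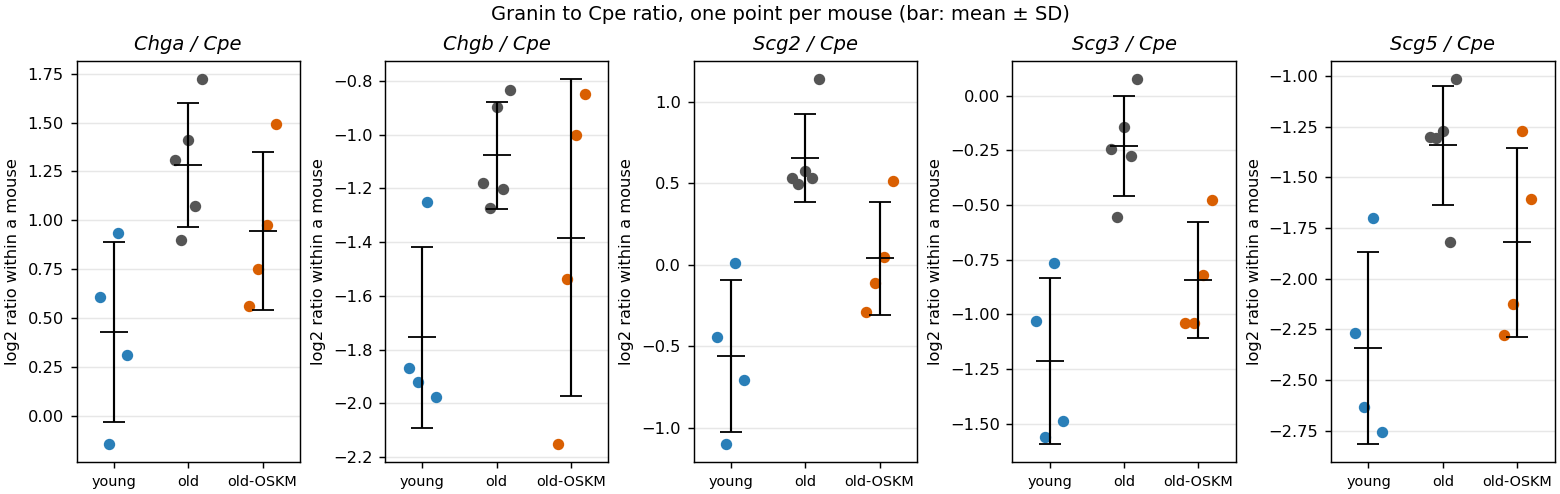
Log2 ratio of each granin to Cpe within a mouse, by group, with the group mean and SD. For Scg2 and Scg3 the old mice lie above all young mice, and the old-OSKM means of 0.04 and -0.84 fall between those of the other groups.

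Ratios between the granins were compared in the same way. The log2 ratio of Chga to Scg2 was 0.99 ± 0.06 in young, 0.63 ± 0.18 in old and 0.91 ± 0.06 in old-OSKM mice (SD). Old mice ranged from 0.40 to 0.83, below the young mice at 0.92 and above and below the old-OSKM mice at 0.85 to 0.98. Old mice thus held more Scg2 per Chga than every mouse of the other groups, by 0.36 and 0.28 on the log2 scale (exact p = 0.016 and 0.016, adjusted p = 0.13 for both). Young and old-OSKM mice differed by -0.081 (exact p = 0.14). Relative to Scg2, 1.09% of all genes separated old from young mice and 0.946% old-OSKM from old mice. Chgb to Scg2 also separated old from young mice, at -1.73 ± 0.18 against -1.20 ± 0.26, and did not separate old-OSKM from old mice. The log2 ratio of Chga to Scg3 was 0.28 higher in old-OSKM than in old mice, with overlap (exact p = 0.032, adjusted p = 0.13), and that of Scg2 to Scg3 differed by 0.00022 between them (exact p = 1). None of the 45 comparisons had an adjusted p under 0.13, and the tested ratios share genes and mice.

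The hormones that the granules carry were compared in the same fit. Ins2, the more abundant insulin gene, averaged 6.87 ± 0.45 in young, 7.14 ± 0.55 in old and 6.54 ± 1.10 log2 RPKM in old-OSKM mice (SD), and Ins1 5.12 ± 0.46, 5.43 ± 0.47 and 4.94 ± 1.29. Iapp, the amyloid peptide released with insulin, averaged 3.93, 4.32 and 3.79, and Gcg, the glucagon gene, 3.81, 4.13 and 4.08. These 4 had higher means in old than in young mice, while Sst, Ppy and Pyy had lower ones, by -0.16, -0.51 and -0.13. None of the 7 islet hormone genes was called in any contrast in limma, and none had a raw p under 0.05. Of all genes, 0.625% to 0.886% were called and 5.07% to 8.07% had a raw p under 0.05. All 7 had lower means in old-OSKM than in old mice, with a median of -0.49, beside -0.62 for the granins and Cpe. Ins1, Ins2 and Iapp followed the mean of the 6 granule genes at r of 0.970 to 0.982 over the 13 mice, Gcg at 0.505.

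Of the 8 genes of prohormone processing and other granule cargo, none was called in limma without the covariate, with 3 at a raw p under 0.05 between old and young mice, 0 between old-OSKM and old mice and 1 between old-OSKM and young mice. In the same order, 5.52%, 8.07% and 5.07% of all genes had a raw p under 0.05, and 0.886%, 0.753% and 0.625% were called. Pam, which amidates peptide ends, averaged 2.34 ± 0.06 in young, 2.70 ± 0.17 in old and 2.61 ± 0.07 in old-OSKM mice (SD), and both older groups lay wholly above the young mice. Its differences from young mice, 0.35 (SE 0.08, adjusted p = 0.22) and 0.27 (SE 0.08, adjusted p = 0.71), were under the fold threshold, and its r with the granule genes was 0.120. Cpd, a carboxypeptidase related to Cpe, averaged 1.67, 1.69 and 1.73 log2 RPKM in the 3 groups, with a difference between old and young mice of 0.023 (interval -0.083 to 0.13). Pcsk2, the convertase that Scg5 chaperones, averaged 1.05, 1.43 and 0.82, and Resp18, a granule protein, 1.03, 1.33 and 0.48. With the hormone covariate Vgf, another granin-like peptide precursor, was called higher in old than in young mice, by 1.04 (SE 0.32, adjusted p = 0.50), at a low level of -3.67 and -2.59 log2 RPKM.

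The 18 genes of granule membrane and exocytosis held 0 calls in every contrast in limma, against 0.625% to 0.886% of all genes. At a raw p under 0.05 there were 0, 3 and 1 in the same order of contrasts, against 5.52%, 8.07% and 5.07% of all genes. Ptprn2, a granule membrane phosphatase homologue, averaged 3.45 ± 0.09 in young, 3.38 ± 0.07 in old and 3.17 ± 0.15 in old-OSKM mice (SD). Old-OSKM and young mice did not overlap, and the difference was -0.27 (SE 0.08, adjusted p = 0.71), under the fold threshold. Hid1, Ica1 and Rab27a, which act in granule formation and docking, had group means of 2.87 to 2.90, 2.42 to 2.52 and 1.73 to 1.86. These abundant genes did not follow the granins, with r of -0.376 for Hid1, 0.116 for Ica1, -0.043 for Rab27a and 0.101 for Ptprn2, whereas Slc30a8, the zinc transporter of insulin granules, did at 0.967.

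Among 8 regulators of neuroendocrine genes, 1 was called, in old-OSKM against old mice, where 0.753% of all genes were called. Insm1, a zinc finger factor of endocrine cells, averaged -1.26 ± 0.79 in young, -0.79 ± 0.32 in old and -2.04 ± 0.68 log2 RPKM in old-OSKM mice (SD). Old-OSKM mice differed from old mice by -1.26 (SE 0.38, adjusted p = 0.55, limma), and -0.95 (SE 0.26, adjusted p = 0.37) with the hormone covariate, called in both. Old-OSKM replicate 4 read -1.11 and old replicate 1 read -1.20, so the groups overlapped by 1 mouse each. All 8 regulators had higher means in old than in young mice, with a median of 0.36. None was called in that contrast, against 0.886% of all genes, and 0 had a raw p under 0.05, against 5.52%. Rest, the repressor of neuronal genes, had an r of 0.223 with the granule genes, and Pax6 one of 0.903.

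The genes whose pattern was most like that of the 6 were sought by Pearson's r with their mean standardized level, over the 13 mice and after centring on group means, among 8394 genes with a mean log2 RPKM above 0. The 8 nearest were Iapp (0.987), Ins1 (0.984), Ins2 (0.982), Resp18 (0.978), Slc30a8 (0.976), Pcsk2 (0.974), Peg3 (0.971) and G6pc2, the islet glucose-6-phosphatase (0.970). Outside the 6, r exceeded 0.9 for 15 genes, and the median over ranked genes was -0.125. The nearest gene to Chga was Scg3 (0.990), to Scg3 Chga (0.990), to Scg2 Chga (0.988), to Chgb Pcsk2 (0.981), to Scg5 Cltrn (0.969) and to Cpe Resp18 (0.979). These values are a description, since mice share normalization and genes are not independent.

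**Figure D5:**
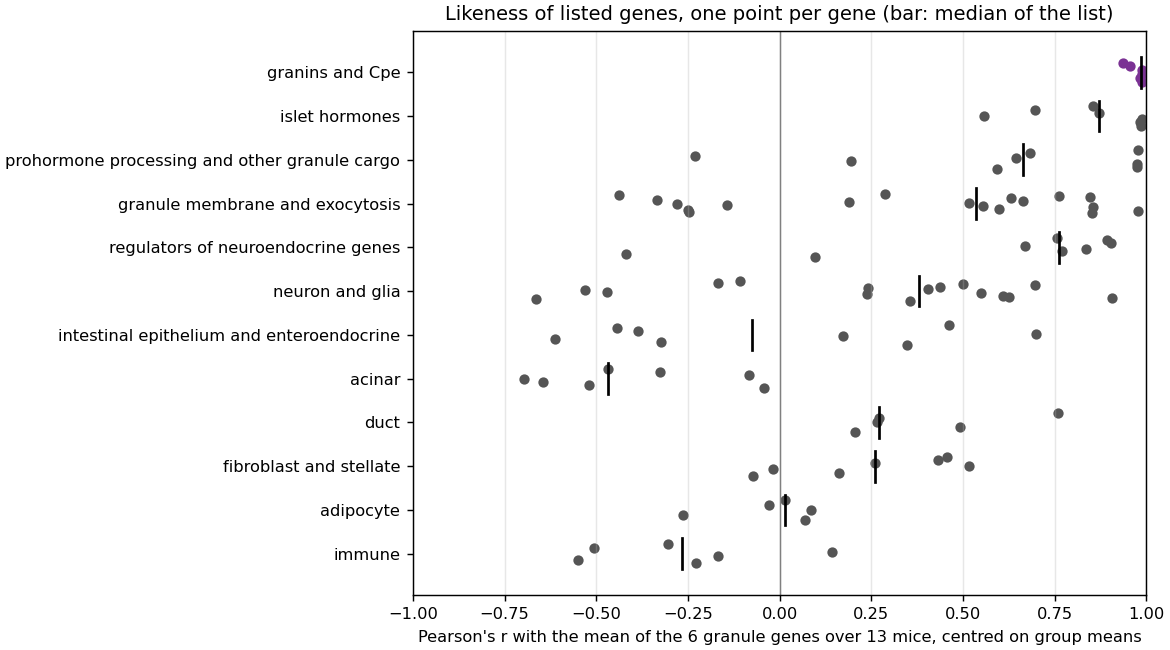
Pearson's r of each listed gene with the mean of the 6 granule genes over 13 mice, centred on group means, by list, with the list's median as a bar. The 6 genes, which are part of that mean, lie at 0.936 to 0.989 and the islet hormones have a median of 0.870, while the granule membrane list spreads from -0.439 to 0.976 and the acinar list has a median of -0.468 over 7 of its 10 genes, the others being constant across mice.

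Markers of other cell types moved with the groups to different degrees. The 7 fibroblast and stellate genes all had lower means in old than in young mice and higher means in old-OSKM than in old mice. Col1a1 (-0.93) and Col3a1 (-1.04) were called in the first contrast and Col1a1 (0.88) and Col1a2 (0.89) in the second, all with adjusted p of 0.47 to 0.55 in limma. Their summed RPKM was 26.9 to 53.8 in young, 20.1 to 26.0 in old and 26.2 to 72.8 in old-OSKM mice. Its part in the lower Cpe of old mice was not tested beyond the covariate given above. Their mean correlated with that of the granule genes at r = -0.036. Neuron and glia genes, a second possible source of granins, had a summed RPKM of 2.02 to 3.63 over all mice. The mean of that list correlated with the granule genes at r = 0.875, and its part in their levels was not tested. All 5 adipocyte and 6 immune genes had higher means in old-OSKM than in old or young mice, with a summed RPKM up to 6.24 and 19.8, and of these genes Plin1 was called in old-OSKM against old mice (1.53) and Jchain in old (2.35) and old-OSKM mice (3.04) against young mice. The intestinal, acinar and duct lists held 0 calls in limma, with 0, 0 and 0, then 2, 0 and 2, then 0, 0 and 0 genes at a raw p under 0.05 in the 3 contrasts. Of all genes, 0.886%, 0.753% and 0.625% were called there, and 5.52%, 8.07% and 5.07% had a raw p under 0.05. At the top of every library, quantile normalization leaves acinar genes nearly the same values in each mouse. A fold over 1.5 was practically out of reach for them, so their lack of calls is not informative.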

How the data were processed

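RNA was measured in pancreas of 13 mice (young n = 4, old n = 5, old-OSKM n = 4), grouped by the condition label. The authors depleted rRNA, prepared NEBNext Ultra II libraries, aligned reads with STAR 2.3.0e to mm10 and estimated RPKM per isoform with Casper. The deposited values are RPKM summed per Entrez gene, as log2 and quantile normalized by the authors (sorted values of the mice differ by at most 0.0116). Read totals and counts per mouse are not given in the table, so no counting error is given, and the study's correction by total reads could not be made.

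All 23366 genes were fitted with limma 3.58.1 in R 4.3.3 (lmFit, contrasts.fit, eBayes), 3 groups in one fit, no covariate, no filter, no pseudocount. Genes were called at a fold over 1.5 and raw p under 0.01, and p-values were Benjamini-Hochberg adjusted over all genes. Correlations used 100000 permutations and ratios exact permutation tests (Python 3.11.15, numpy 2.4.6, scipy 1.17.1). The fit and the permutation p were tested on simulated data. Intervals are 95%.

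The 6 genes and all lists were chosen with earlier results of these data known. Named are the 6 genes, list genes called in a contrast, the 4 most expressed hormone, processing and granule membrane genes, and the nearest genes by r. The result of 1 list gene is not reported here. Slc30a8, Pax6, Rest, Ppy and Fabp1 were added after their values were seen. Symbols were found for 23273 genes (GRCm38.p6). Whether mice of a group shared litters is not given in the sources used here. Alternatives covered normalization, pseudocounts of 1 and 0.1, low-value filters, the samples fitted, variance priors, the run of sample identifiers, the islet hormone level and each mouse left out.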

Additional observations from a re-analysis of the deposited data

Results flagged for a closer look

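Among 36 groups of 4 or 5 mice examined for a value far from the others (Dixon's test), 3 held one, and chance alone would mark about 1 in 20 groups. Scg5 of young replicate 3 was 1.14 log2 RPKM, and the next young mouse was at -0.15. In the same mouse the log2 ratio of Chgb to Cpe was -1.25, and the next young mouse was at -1.87. This mouse also had the highest Ppy and Fabp1 of the 13. The log2 ratio of Scg2 to Cpe in old replicate 5 was 1.14, and the next old mouse was at 0.58.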

How the results depend on the processing

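Repeated quantile normalization, centring on each mouse's median, pseudocounts of 1 and 0.1, filters at a mean log2 RPKM of 0 and -1, fits of only the 2 groups compared, trend and robust priors left 0 of the 6 genes called in each contrast, with all signs kept. Over all alternatives that kept all mice or lost a run or pair of them, hormone covariates included, genes called of all tested were 16 to 249 in old minus young (207 as reported), 2 to 218 in old-OSKM minus old (176) and 8 to 180 in old-OSKM minus young (146). The low ends came with a pseudocount of 1. With the hormone mean as covariate 1 gene was called in old minus young, Cpe in old-OSKM minus old turned to 0.10 (0.26 with the hormone mean subtracted), and Chga, Chgb, Scg2 and Scg5 in old-OSKM minus young turned to 0.14, 0.0052, 0.21 and 0.089. Subtraction gave 0.11, 0.20 and 0.12 for Chga, Scg2 and Scg5 there, but it shifts every gene alike, and the median of all genes was 0.43 in old-OSKM minus old and 0.36 in old-OSKM minus young, above these values. With the run of sample identifiers as covariate they were 0.097, 0.20 and 0.021, and in the first run alone 0.18, 0.28 and 0.099. Without old-OSKM replicates 1 and 4 together, 1 gene was called in old-OSKM minus young.

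The remaining alternatives in this paragraph were chosen after seeing the data and start from the comparison at equal islet hormone level. In old minus young, Scg2 was called in place of Cpe with the fibroblast mean added. Chgb turned to -0.16 with a hormone mean without Ppy and Pyy, to -0.24 with Ins1, Ins2 and Iapp, and to -0.044 with the fibroblast mean added, and Chga turned to -0.055 with Ins1, Ins2 and Iapp. In old-OSKM minus old, Chgb turned to 0.023 with Ins1, Ins2 and Iapp and to 0.064 with the fibroblast mean, and Cpe to -0.071 with the latter. In old-OSKM minus young, 1 gene was called without Ppy and Pyy and 1 with Ins1, Ins2 and Iapp. Chga, Chgb, Scg2 and Scg5 turned to -0.075, -0.22, -0.0048 and -0.11 without Ppy and Pyy, and Chga, Chgb and Scg5 to -0.072, -0.22 and -0.10 with Ins1, Ins2 and Iapp.

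With each mouse left out in turn, genes called of all tested were 175 to 280 in old minus young, 94 to 338 in old-OSKM minus old and 121 to 253 in old-OSKM minus young. The median difference of the 6 was 0.14 to 0.62, -1.10 to -0.26 and -0.86 to 0.058 in the same order. Genes called among the 6 were 0 to 2 in old-OSKM minus old and 0 to 1 in old-OSKM minus young, and at equal hormone level 0 to 2 in old minus young (Scg2 added without old replicate 3 or 4, Scg2 in place of Cpe without young replicate 4, none without young replicate 2) and 0 to 1 in old-OSKM minus young (Cpe, without old-OSKM replicate 2 or young replicate 1 or 3). Signs changed for Chgb in old minus young (-0.092 to 0.38), Cpe in old-OSKM minus old (-0.56 to 0.0099), and Chga (-0.82 to 0.068), Chgb (-0.96 to 0.047), Scg2 (-0.71 to 0.13) and Scg5 (-0.70 to 0.094) in old-OSKM minus young. At equal hormone level they changed for Chgb in the 3 contrasts (-0.071 to 0.11, -0.085 to 0.11 and -0.077 to 0.13), Chga in old-OSKM minus old (-0.13 to 0.083) and Scg5 in old-OSKM minus young (-0.021 to 0.17). The causes were not tested. No paired analysis was possible because the labels give no replicate numbers that mice of different groups share.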
